A study of Mus musculus with 6 samples.

Results

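Germinal centre B cell genes were followed in the spleen of mice with and without a working Was gene. The genes were the 8 rows of the deposited expression table whose symbol is Bcl6, Mybl1, Gcsam, Fas, Rgs13, Mef2b, Nuggc or Basp1, out of 26452 rows, and all 8 had enough reads to be tested. RNA was sequenced from the spleens of 10-week-old male mice of 2 genotypes, Was -/- (129S6/SvEvTac-Wastm1Sbs/J, 3 libraries, KO451, KO452 and KO457) and 129S6/SvEvTac wild type (3 libraries, WT453, WT454 and WT455). Was encodes an activator of Arp2/3-driven actin assembly in blood cells. The mutation is carried in the germline and so is not limited to B cells. The labels name no immunisation, do not say that the wild-type mice were littermates, and do not state that each library is 1 mouse, so p-values cover only the variation among the sequenced libraries, which may be technical.

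A germinal centre is a short-lived structure in a B cell follicle, in which B cells that have met antigen divide, mutate their antibody genes and are selected by follicular helper T cells. BCL6, a transcriptional repressor, is required for B cells to enter and remain in this state, and MEF2B is one of the factors that switch Bcl6 on. The other members are genes that these cells express at a higher level than resting follicular B cells do. Several are also expressed elsewhere in the spleen, Bcl6 in follicular helper T cells and myeloid cells and Fas in activated T cells. In RNA of a whole spleen, fewer cells of a type and less RNA per cell cannot be told apart.

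The libraries held between 30661759 and 38402758 reads assigned to genes. Was had between 407 and 508 normalised counts in the knockout libraries and between 4142 and 6561 in the wild-type libraries, so each library carried the Was level of its label (log2 fold change -3.66 ± 0.25 SE, limma with Benjamini-Hochberg adjusted p = 0.0117). Here and below, a normalised count is a read count divided by the authors' size factor of the library, and fold changes are knockout minus wild type on the scale of log2(normalised count + 1). WT453 stood apart from the other wild-type libraries. On that log2 scale and against the mean of the 6 libraries, its 8 red pulp macrophage genes averaged -1.68, its 12 pan B cell genes -0.73 and its 7 neutrophil genes 1.76. KO457 was the other library with many neutrophil transcripts, at 1.51. All 12 pan B cell genes were tested and had at least 753 normalised counts in every library. Where leaving out WT453 moved a log2 fold change given below by more than 1.5 times or turned its sign, the value without it is also given, and for the 8 genes likewise without KO457.

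None of the 8 genes passed the test over all genes, with adjusted p between 0.350 and 0.841 (limma), where 2 of 22071 genes tested, or 0.00906%, did. The mean was higher in knockout libraries for 6 of the 8, Mef2b, Mybl1, Gcsam, Rgs13, Basp1 and Nuggc, and lower for Bcl6 and Fas, where 47.7% of genes tested had a higher mean. The median log2 fold change of the 8 was 0.50, beside -0.03 over all genes tested. It was 0.21 without KO457 and 0.27 without WT454. Leaving out WT453 gave 0.77 and leaving out KO452 gave 0.76. Before adjustment the limma p of Basp1 and Rgs13, 2 of the 8, was below 0.05. Both were higher in knockout libraries, as were 5.5% of genes tested at that p, while 0 of the 8 were lower at that p, beside 5.46% of genes tested. The authors' deposited table lists the same 2 at an FDR under 0.05, Basp1 at 0.0351 and Rgs13 at 0.0457, in a table in which 2.14% of genes were listed as higher and 1.44% as lower at that threshold. Every knockout library lay above every wild-type library in the same 2 genes, where 9.54% of genes tested did so, and 0 of the 8 had every knockout library below every wild-type library, where 9.94% did so (19.5% in either direction). An exact two-sided permutation test of 3 against 3 libraries cannot give a p below 0.1, and both genes were at that limit.

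**Figure D1:**
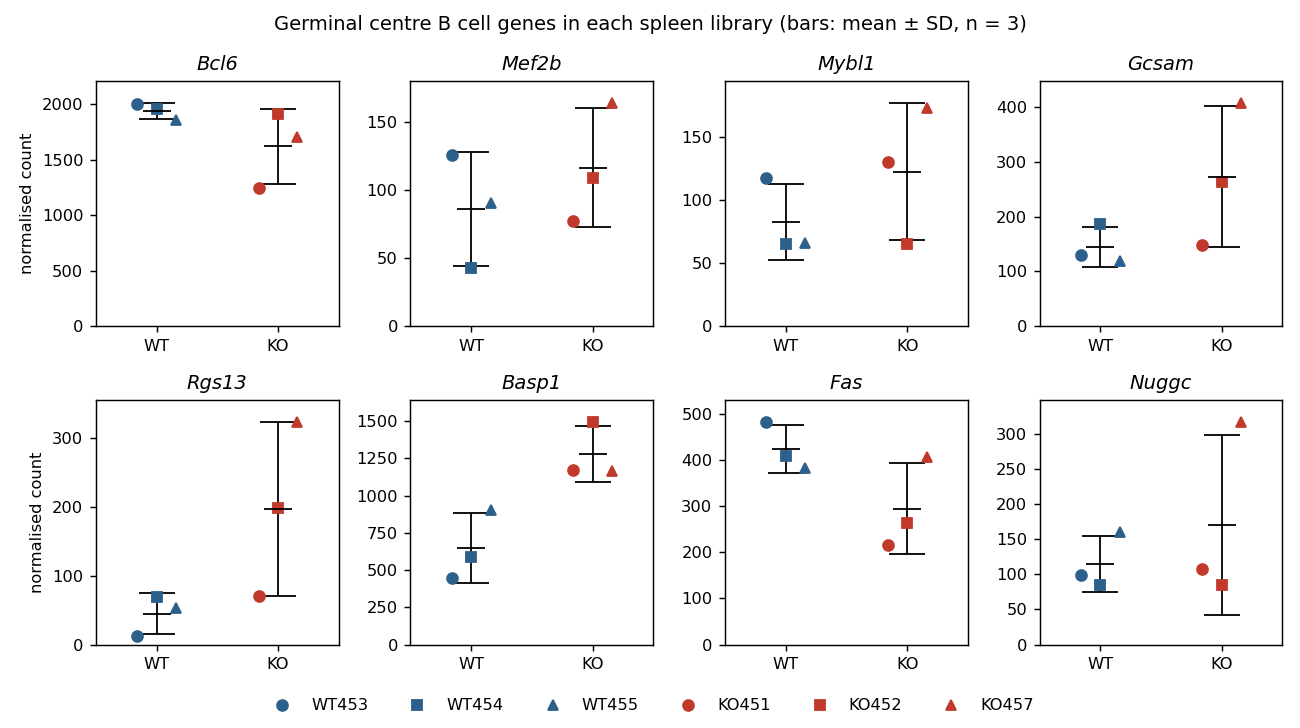
Normalised count of each germinal centre gene (vertical axis, linear, from 0) in the 3 wild-type (blue) and 3 knockout (red) libraries, with the mean and SD of each group as black bars. KO457, the red triangle, is the highest library in Mef2b, Mybl1, Gcsam, Rgs13 and Nuggc, while the Basp1 values of the knockout libraries lie between 1167 and 1495 and those of the wild-type libraries between 443 and 903.

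The transcription factors of the set come first. Bcl6 (ENSMUSG00000022508, GRCm38 chromosome 16, 23965052 to 23988852, minus strand) had 1247, 1907 and 1705 normalised counts in KO451, KO452 and KO457, and 1996, 1953 and 1860 in WT453, WT454 and WT455. The wild-type values lay close together and the knockout values spread below and into their range, with KO451 the lowest of the 6. Its log2 fold change was -0.28 ± 0.22 (SE, limma adjusted p = 0.670), with a 95% interval from -0.79 to 0.24. Without KO451 it was -0.10.

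Mef2b (ENSMUSG00000079033, chromosome 8, 70139711 to 70167488, plus strand), a MADS-box factor and direct activator of Bcl6, had 77.2, 109 and 164 normalised counts in KO451, KO452 and KO457. It had 126, 42.4 and 90.4 in WT453, WT454 and WT455. The groups overlapped, and the lowest and the highest library, WT454 and KO457, belong to different groups. The log2 fold change was 0.50 ± 0.51 (SE, limma adjusted p = 0.731), 0.06 without WT454, 0.22 without KO457, 0.76 without KO451 and 0.84 without WT453. The model of Mef2b overlaps that of Borcs8 on the same strand and shares 62 exonic bases with it, 4.42% of its 1404, so some reads could be counted for either gene. Borcs8 itself had between 610 and 778 normalised counts, with its highest values in WT454 and WT453.

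Mybl1 (ENSMUSG00000025912, chromosome 1, 9667415 to 9700209, minus strand) encodes A-MYB, a transcription factor that dividing germinal centre B cells express. It had 130, 65.0 and 172 normalised counts in the knockout libraries, in the order KO451, KO452 and KO457, and 117, 65.3 and 65.5 in WT453, WT454 and WT455. KO457, KO451 and WT453 were the 3 high libraries, which are also the 3 with the highest mean of 10 mitosis genes, at 0.53, 1.36 and 0.70 above the 6-library mean on the log2 scale. The part of cell division in the Mybl1 values was not tested. Its log2 fold change was 0.51 ± 0.48 (SE, limma adjusted p = 0.722), 0.79 without WT453, 0.90 without KO452 and 0.21 without KO457.

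Promoter sequence was read from RefSeq for GRCm38.p6, a C57BL/6J reference and not the 129S6 strain of these mice, and 6 of the 8 genes were matched (Bcl6, Gcsam, Fas, Rgs13, Mef2b and Basp1), with 2 start sites for Bcl6. The windows below are the 250 bases before the start of transcription, 5′ to 3′ on the strand of the gene. Those of Bcl6, Mef2b and Rgs13 are shown because BCL6 is known to bind its own gene, because Mef2b is one of its activators, and because Rgs13 had the largest difference of the 8. The Fas window is also shown and holds the core TTCNNNGAA, whereas the windows of Gcsam and Basp1, which lack it, are not shown. Capitals mark the core TTCNNNGAA, which is its own reverse complement and is shared by BCL6 and STAT factors, and the octamer ATGCAAAT bound by B cell octamer factors. The first Bcl6 window is chr16:23988853-23989102, that of Fas is chr19:34290409-34290658 and that of Rgs13 is chr1:144177373-144177622. The second Bcl6 window, chr16:23981284-23981533, and that of Mef2b, chr8:70152511-70152760, lie inside the model of their gene.
Bcl6 first start: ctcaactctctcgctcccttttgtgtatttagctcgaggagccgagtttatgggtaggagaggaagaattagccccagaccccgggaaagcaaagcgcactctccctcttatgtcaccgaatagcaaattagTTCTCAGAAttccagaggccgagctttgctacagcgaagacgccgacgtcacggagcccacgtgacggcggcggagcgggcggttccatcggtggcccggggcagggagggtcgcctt
Bcl6 second start: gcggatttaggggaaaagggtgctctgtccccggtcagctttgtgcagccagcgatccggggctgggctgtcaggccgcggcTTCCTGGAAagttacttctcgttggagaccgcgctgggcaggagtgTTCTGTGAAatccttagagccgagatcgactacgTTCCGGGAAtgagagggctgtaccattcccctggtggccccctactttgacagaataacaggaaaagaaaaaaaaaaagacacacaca
Fas: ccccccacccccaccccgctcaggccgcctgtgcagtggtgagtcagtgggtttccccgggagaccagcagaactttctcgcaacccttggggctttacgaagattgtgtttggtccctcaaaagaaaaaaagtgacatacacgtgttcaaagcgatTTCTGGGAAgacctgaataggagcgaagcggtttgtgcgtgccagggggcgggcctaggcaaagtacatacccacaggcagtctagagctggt
Mef2b: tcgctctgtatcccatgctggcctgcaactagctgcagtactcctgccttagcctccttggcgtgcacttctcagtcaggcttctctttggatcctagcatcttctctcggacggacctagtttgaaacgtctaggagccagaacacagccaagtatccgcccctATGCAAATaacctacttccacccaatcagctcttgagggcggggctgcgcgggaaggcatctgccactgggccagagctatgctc
Rgs13: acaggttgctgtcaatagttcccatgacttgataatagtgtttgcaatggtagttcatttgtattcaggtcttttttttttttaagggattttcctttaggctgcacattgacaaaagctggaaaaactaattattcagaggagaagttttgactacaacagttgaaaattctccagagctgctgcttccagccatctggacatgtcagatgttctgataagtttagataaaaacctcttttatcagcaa

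The core TTCNNNGAA occurred 1 time before the first Bcl6 start, 3 times before the second, and 1 time before Fas, and not in the windows of Gcsam, Rgs13, Mef2b or Basp1. Of 32851 promoters of the same length, 7.02% hold it. The 3 copies of the second Bcl6 window begin 168, 122 and 88 bases before the start and read TTCCTGGAA, TTCTGTGAA and TTCCGGGAA. The octamer, searched on both strands, occurred 1 time before Mef2b, 85 bases before the start, and in 1.60% of all promoters. The MEF2 core TATTTATA, searched on both strands, occurred in none of the 7 windows and in 1.56% of all promoters. The MYB core AACNG, searched on both strands and not capitalised, was in 5 of the 7 windows and in 74.2% of all promoters. These matches describe letters only, and no binding was measured.

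Bcl6 and Fas were the members with the most similar pattern over the 6 libraries. Their log2 values, each centred on the gene's mean, differed by a root mean square of 0.28, the smallest of the 28 pairs of members. The largest was 1.65, between Fas and Rgs13. Fas (ENSMUSG00000024778, chromosome 19, 34290666 to 34327772, plus strand) encodes the death receptor that germinal centre B cells carry, through which T cells can kill them. It had 215, 263 and 405 normalised counts in KO451, KO452 and KO457 and 482, 408 and 382 in WT453, WT454 and WT455. KO451 and KO452 lay below all wild-type libraries, and KO457 lay within their range. The log2 fold change was -0.57 ± 0.30 (SE, limma adjusted p = 0.528), -0.82 without KO457 and -0.37 without KO451.

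The genes of signalling and motility include those with the largest differences. Rgs13 (ENSMUSG00000051079, chromosome 1, 144138654 to 144177372, minus strand) encodes a regulator of G protein signalling that dampens the response of germinal centre B cells to chemokines. It had 69.7, 198 and 322 normalised counts in KO451, KO452 and KO457 and 12.4, 69.3 and 53.0 in WT453, WT454 and WT455. KO452 and KO457 stood well above the other 4 libraries, whereas KO451 was level with WT454. The WT453 value rests on 12 reads, with an exact 95% Poisson upper bound of 21.0 reads that covers counting error only. The log2 fold change was 2.16 ± 0.80 (SE, limma adjusted p = 0.406), a 4.47-fold difference, with a 95% interval from 0.29 to 4.03 on the log2 scale. It was 1.43 without WT453, 1.68 without KO457 and 2.78 without KO451. The separation of the groups is narrow and depends on the scaling: in CPM, counts scaled by the total of reads assigned to genes, WT454 at 2.21 lay above KO451 at 1.88.

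Gcsam (ENSMUSG00000022659, chromosome 16, 45610380 to 45622867, plus strand), an adaptor that links the B cell receptor to the control of motility, had 149, 263 and 407 normalised counts in KO451, KO452 and KO457. It had 130, 187 and 118 in WT453, WT454 and WT455. KO452 and KO457 were above all wild-type libraries, and KO451 lay between WT453 and WT454. Gcsam differed by a log2 fold change of 0.82 ± 0.43 (SE, limma adjusted p = 0.517), 1.20 without KO451 and 0.47 without KO457.

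Basp1 (ENSMUSG00000045763, chromosome 15, 25363277 to 25413764, minus strand), a membrane-attached protein best known from growing nerve endings, had the smallest p of the 8. It had 1171, 1495 and 1167 normalised counts in KO451, KO452 and KO457 and 443, 590 and 903 in WT453, WT454 and WT455. The groups did not overlap, also in CPM, where KO451 at 31.6 was the lowest knockout library and WT455 at 28.3 the highest wild-type one. The log2 fold change was 1.04 ± 0.30 (SE, limma adjusted p = 0.350), a 2.05-fold difference, with a 95% interval from 0.33 to 1.74. It ranged from 0.80 without WT453 to 1.31 without WT455. Basp1 was highest in KO452 and lowest in WT453, as was the mean of 8 red pulp macrophage genes, with 1.01 and -1.68 against the 6-library mean on the log2 scale. All 8 of those genes were detected, their summed level ranged from 135686 to 212389 normalised counts in knockout and from 35255 to 118251 in wild-type libraries, and their part in the Basp1 values was not tested.

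Nuggc (ENSMUSG00000061356, chromosome 14, 65598546 to 65648531, plus strand), a nuclear GTPase of germinal centre B cells, had 107, 85.0 and 317 normalised counts in KO451, KO452 and KO457 and 98.9, 84.8 and 160 in WT453, WT454 and WT455. KO457 alone stood above the other 5. On the log2 scale the difference was 0.37 ± 0.55 (SE, limma adjusted p = 0.841) and turned to -0.21 without KO457. It lay between 0.18, without WT454, and 0.74, without KO452, when another library was left out.

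**Figure D2:**
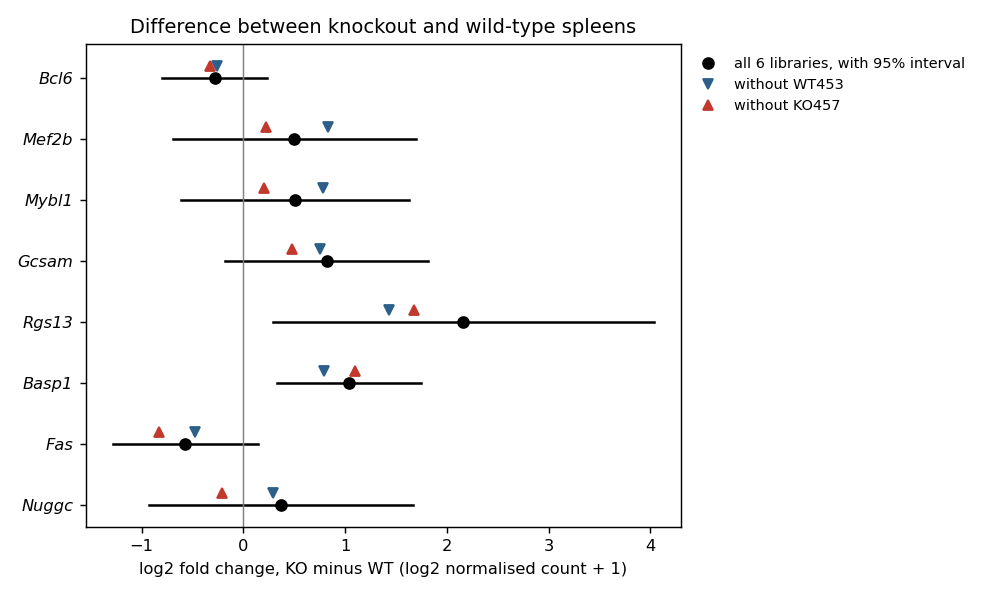
Log2 fold change of each germinal centre gene between knockout and wild-type libraries (horizontal axis), with all 6 libraries (black point, line for the 95% interval from limma) and without WT453 (blue) or KO457 (red). The intervals of Rgs13 and Basp1 lie above 0 before adjustment for multiple tests, and Nuggc crosses 0 without KO457.

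KO457 was the highest of the 6 libraries in 5 of the 8 genes, whereas it was the highest in 9.37% of all genes tested. WT453 was the highest in 2 of the 8, Bcl6 and Fas, and in 31.7% of all genes tested. The mean of the 8 centred log2 values was 0.84 in KO457, 0.18 in KO452 and -0.16 in KO451, and it was -0.38, -0.32 and -0.15 in WT453, WT454 and WT455. KO451 fell within the wild-type range of this mean, and its SD was 0.51 over the knockout and 0.12 over the wild-type libraries (n = 3 each). Of all 11957 other genes with at least 1 CPM and a symbol that is no predicted gene or antigen receptor segment, those nearest to this mean profile were the pseudogene Pgam1-ps2, the small GTPase Arl6, the myeloid and NK cell adaptor Tyrobp, Hacd4 and Coro2b, at root mean square differences of 0.075 to 0.17 over the 6 libraries, where the median gene was at 0.59.

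Levels per kilobase of exon set the members apart by size. In wild-type libraries, Basp1 averaged 321 ± 117 (SD, n = 3) normalised counts per kilobase, Bcl6 289 ± 10.4, Fas 206 ± 25.2 and Mef2b 61.4 ± 29.8. Gcsam followed at 42.4 ± 10.7, Nuggc at 40.4 ± 14.1, Rgs13 at 27.1 ± 17.7 and Mybl1 at 15.3 ± 5.57. Among neighbours in this order only Bcl6 and Fas, and Fas and Mef2b, had ranges that did not overlap. In knockout libraries Basp1 averaged 636 ± 93.8 and was separate from Bcl6 at 242 ± 50.5, and Rgs13 averaged 119 ± 76.2, between Fas and Mef2b, with a range that overlapped those of both.

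**Figure D3:**
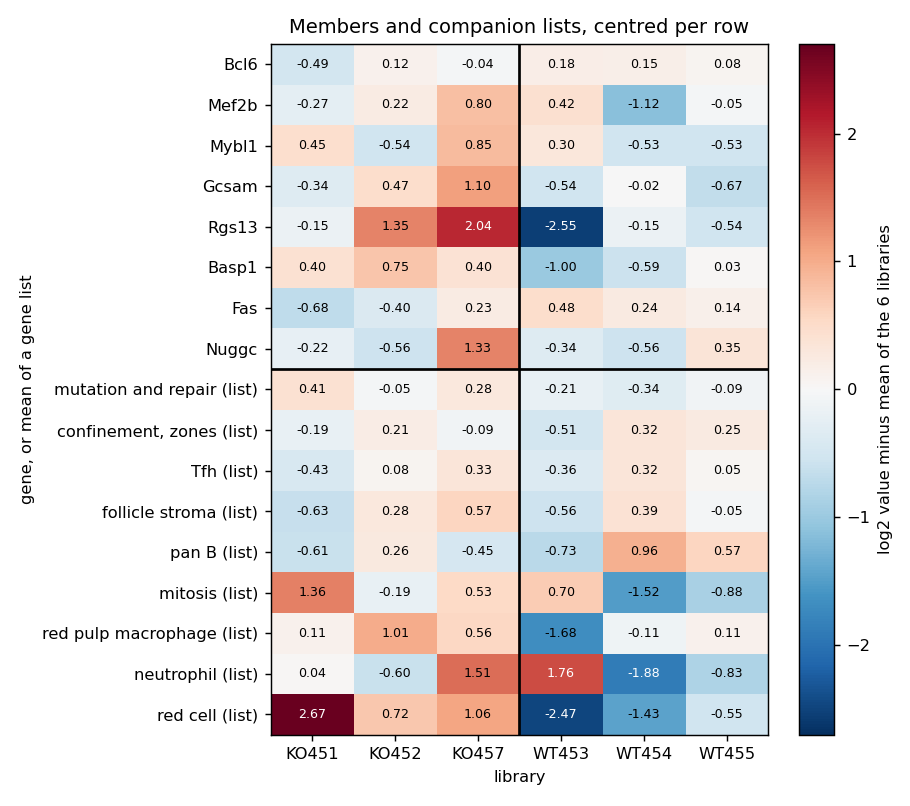
Log2 values of the 8 germinal centre genes, and means of 9 gene lists, in each library, each row centred on its mean over the 6 libraries (colour and printed number). KO457 is the darkest red cell in the rows of Mef2b, Mybl1, Gcsam, Rgs13 and Nuggc, and WT453 is low in the red pulp macrophage and red cell rows and high in the neutrophil row.

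The members were also set against the B cell content of the same library. Pan B cell genes had a lower mean in knockout libraries for 11 of 12 (median log2 fold change -0.55, 0 past the adjusted threshold) and for 12 of 12 without WT453 (median -1.09), with Ralgps2 at -0.93 ± 0.34 (SE, limma adjusted p = 0.406) and Cd79a, a chain of the B cell receptor, at -0.53 ± 0.46 (-0.998 without WT453). Lower means were also seen for 7 of 7 T cell genes (median -0.50, -0.90 without WT453) and 7 of 7 NK and cytotoxic cell genes (-0.35, -0.99 without WT453). All 8 red cell precursor genes had a higher mean, with no overlap between the groups (median 3.02, 2.45 without WT453), beside 9.54% of genes tested. The part of these cells in the B cell values was not tested. Against the mean log2 value of these 12 genes, 7 of the 8 members had a higher mean in knockout libraries, as did 76.8% of all genes tested. Rgs13, Gcsam and Basp1 were then higher in each knockout library than in each wild-type library, where 10.4% of genes tested were. Relative to that B cell mean, Rgs13 was at -5.81, -5.18 and -3.77 in KO451, KO452 and KO457 and at -8.08, -7.38 and -7.37 in WT453, WT454 and WT455 on the log2 scale, so that the margin seen for Rgs13 alone widened. Gcsam was at -4.72, -4.77 and -3.43 in the knockout and at -4.79, -5.96 and -6.23 in the wild-type libraries, with KO452 and WT453 nearly level. Exact two-sided permutation tests gave p = 0.1 for Rgs13, Gcsam and Basp1, the smallest possible with 3 against 3, and between 0.2 and 1.0 for the other 5.

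**Figure D4:**
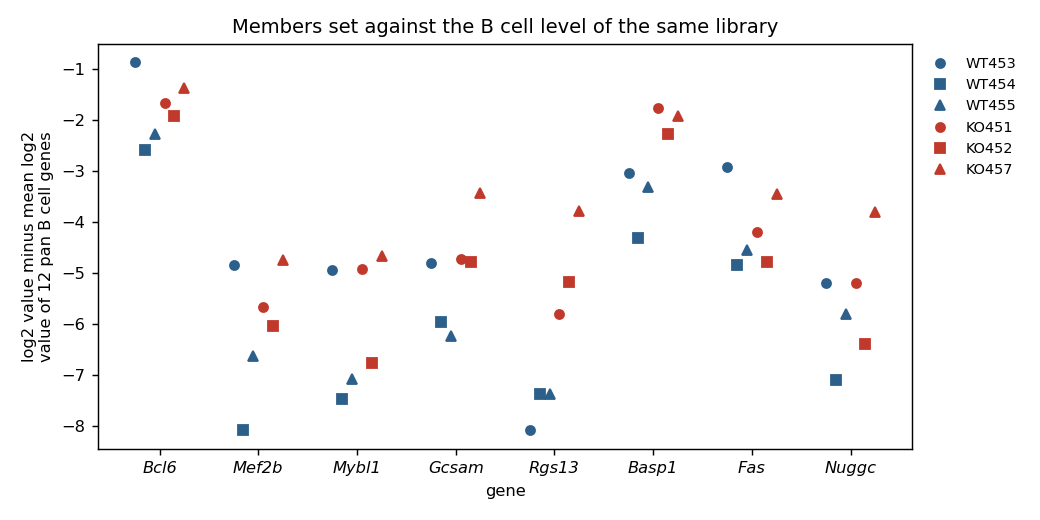
Log2 value of each germinal centre gene minus the mean log2 value of 12 pan B cell genes in the same library (vertical axis), wild-type libraries in blue and knockout libraries in red. For Rgs13 and Basp1 every red symbol lies above every blue one, whereas for Bcl6 and Fas WT453 is the highest symbol.

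The medians of the 8 members minus that B cell mean averaged -4.47 with an SD of 0.75 over the 3 knockout libraries and -5.78 with an SD of 0.88 over the 3 wild-type libraries, a difference of 1.32. Centring the libraries on pan B cell genes also moved the median of all genes tested from -0.03 to 0.50. The median of the members moved with it, from 0.50 to 1.04.

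Other genes of the germinal centre programme were examined as lists, and none of their members passed the adjusted threshold in limma. Of 11 genes of antibody gene mutation and repair, 9 had a higher mean in knockout libraries, with a median log2 fold change of 0.42 (0.28 without WT453), where 47.7% of genes tested had a higher mean. All 10 mitosis genes also had a higher mean (median 1.15, 1.79 without WT453), and their average was highest in KO451, which was also the highest library for Exo1 and Msh6, and their part in these values was not tested. Exo1, an exonuclease of mismatch repair, was at 0.98 ± 0.45 (SE, limma adjusted p = 0.484) and Msh6 at 0.42 ± 0.25. In 3 of the 11, Msh6 and, named after their values were seen, Apex1 and Ung, every knockout library lay above every wild-type library, beside 9.54% of genes tested.

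Of 10 genes of germinal centre confinement, zones and migration, 5 had a higher and 5 a lower mean (median 0.04, -0.31 without WT453). Arhgef1, which acts below the receptors that hold B cells in the germinal centre, was at -1.10 ± 0.35 (SE, limma adjusted p = 0.366). The authors' deposited table lists it at an FDR of 0.0290, and 1.44% of all genes as lower at an FDR under 0.05. The WT453 value of Arhgef1, 32436 normalised counts, was the highest, against 15784 and 14539 in WT454 and WT455 and between 7168 and 11644 in knockout libraries. Its log2 fold change was -0.73 without WT453. Plxnb2, a plexin of germinal centre B cells, was at 0.94 ± 0.40 (0.47 without WT453) and Cxcr4, the dark zone chemokine receptor, at -0.46 ± 0.21. S1pr2, the confinement receptor named after its values were seen, had 286, 342 and 745 normalised counts in KO451, KO452 and KO457 and 544, 331 and 317 in WT453, WT454 and WT455, with KO457 highest.

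Partners of BCL6 were mixed in direction, while its targets were more often lower than higher in knockout libraries. Its 8 corepressors and chromatin partners were 4 higher and 4 lower, and 2 higher and 6 lower without WT453 (median 0.04, -0.24 without it), with Tbl1xr1 at -0.97 ± 0.32 (SE, limma adjusted p = 0.374), Ezh2, the histone methyltransferase, at 0.64 ± 0.39 and Ncor1 at 0.12 ± 0.29. Without WT453 these were at -0.60, 1.03 and -0.18. Ezh2 ranked the 6 libraries as the mean of 10 mitosis genes did, from KO451, with 3083 normalised counts, to WT454, with 1042. The part of cell division in the Ezh2 values was not tested. Of 11 genes known to be repressed by BCL6, 8 had a lower and 3 a higher mean in knockout libraries. Of all genes tested, 47.7% had a higher mean. The 11 had a median of -0.31, and without WT453 9 were lower, with a median of -0.49. Examples are Cd69, an activation marker, at -0.93 ± 0.33 (SE, limma adjusted p = 0.398), S1pr1, the receptor for exit from lymphoid tissue, at -0.83 ± 0.55, Nfkb1 at -0.08 ± 0.37 and Ccnd2 at 0.10 ± 0.45. Without WT453, S1pr1 was at -1.44, Nfkb1 at -0.49 and Ccnd2 at -0.44, on the other side of 0. The mean of the 11 was highest in WT454 and WT455, at 0.39 and 0.41 above the 6-library mean on the log2 scale. The pan B cell mean was highest in the same libraries, at 0.96 and 0.57. The part of B cell content in the values of the 11 was not tested.

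Among the 5 MYB and MEF2 paralogs, Mybl2 was at 1.52 ± 0.49 (SE, limma adjusted p = 0.373) and had its highest value, 4696 normalised counts, in KO451, unlike Mybl1. The mean of 10 mitosis genes was also highest in KO451, and the part of cell division in the Mybl2 values was not tested. Mef2d was at -0.64 ± 0.20. Neither gene overlapped between the groups, with every knockout library above (Mybl2) or below (Mef2d) every wild-type library. Of all genes tested, 9.54% lay above and 9.94% below in this way. Mef2c was at -1.05 ± 0.43 (-0.61 without WT453) and Myb at 0.42 ± 0.45 (0.90 without WT453). The authors' deposited table lists Mybl2 at an FDR of 0.0202 and Mef2d at 0.0343. Under 0.05 it lists 2.14% of genes as higher and 1.44% as lower. In the Fas pathway, Fasl, the ligand of Fas, was at -0.76 ± 0.41 and Casp8 at -0.14 ± 0.25 (-0.36 without WT453).

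Markers of the cells that support a germinal centre gave no common direction. Of 11 follicular helper T cell genes 4 had a higher and 7 a lower mean (median -0.11). Tox2 had 108, 79.0 and 155 normalised counts in KO451, KO452 and KO457 and 66.0, 47.3 and 69.6 in WT453, WT454 and WT455, at 0.86 ± 0.39 (SE, limma adjusted p = 0.484). Maf was at 0.95 ± 0.43 (0.48 without WT453) and Cxcr5, the receptor that brings T and B cells into follicles, at -0.70 ± 0.58 (-1.37 without WT453). Of 8 genes of follicular dendritic cells and follicle stroma 4 were higher and 4 lower, and 5 were higher without WT453. Cxcl13, the follicle chemokine, had 4.29, 17.0 and 41.6 normalised counts in KO451, KO452 and KO457 and 0, 12.2 and 7.27 in WT453, WT454 and WT455, at 1.74 ± 1.19, and 0.61 without WT453. Cr2, a complement receptor of follicular dendritic cells and B cells, was at -0.96 ± 0.56 (-1.64 without WT453). Fcgr2b, named after its values were seen, was the only gene of these 8 without overlap between the groups (-0.95 ± 0.27, limma adjusted p = 0.349). Of all genes tested, 9.94% were likewise lower in every knockout library. Fcgr2b had 1257, 1613 and 1822 normalised counts in KO451, KO452 and KO457 and 4108, 2638 and 2436 in WT453, WT454 and WT455. Which cells of the spleen its reads came from was not tested.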

How the data were processed

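Spleen RNA of 6 libraries was analysed from 1 deposited table of 26452 genes. The submitters' processing notes list STAR 2.5.3a and StringTie 1.3.1c, with FastQC 0.11.5, DESeq and the build GRCm38, but no roles. How reads were counted, with which annotation and strand setting, is not given in the sources used here. Values are deposited on a log2 scale, as log2(normalised count + 1). The normalised count is a whole number of reads over 1 size factor per library, which was read from the values: whole reads came back for 100% of values within 0.001 of a whole read. The deposited p-value and FDR are the authors' own, with no stated test beyond that note. Only the knockout columns carry a suffix, whose meaning is not stated. Genes with a mean normalised count of at least 1 (22071) were tested with limma 3.58.1 in R 4.3.3, with an intensity trend, Benjamini-Hochberg adjustment and a threshold of 0.05. The script was tested on simulated data. Members and gene lists were chosen with earlier results of these data known. Named in the text are every member, the 2 most abundant and the 2 most different genes of each companion list, the 5 genes nearest to the members' mean profile, and genes stated as named after their values were seen, as were Apex1 and Ung. Exon lengths and positions came from GENCODE M21 on GRCm38, which held 26404 of the gene identifiers. Alternatives were another pseudocount, filter, scaling, voom, robust limma and leaving out each library. Part of the genes under this rule is not reported here.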

Additional observations from a re-analysis of the deposited data

How the results depend on the processing

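In each of 15 alternative settings, 0 of the 8 germinal centre genes and 0 genes of the companion lists passed the adjusted threshold. These settings were a pseudocount of 0.1, no filter, a filter at 1 CPM, quantile normalization, centring on pan B cell genes, voom with and without quality weights, each library left out and, added after seeing the data, scaling to total reads and robust limma. Over all genes tested, at most 4 of 22071 passed in a setting, under voom with quality weights. Without KO451, KO452, KO457, WT454 or WT455, 0 genes passed, so a count of 0 among the members says little about them. Unadjusted limma p stayed under 0.05 in all 15 for Basp1 and in 12 for Rgs13, and was so in 2 for Gcsam and 1 for Fas. The settings refit the same libraries, and the share of all genes at that p was taken for the main fit only. The median log2 fold change of the members lay between 0.21 and 0.77 when 1 library was left out, and was 1.04 after centring on pan B cell genes, which by construction adds the lower B cell level of knockout libraries to each gene. Under that centring Bcl6 reversed to 0.25 (limma adjusted p = 0.921). Nuggc reversed to -0.21 without KO457, its highest library (adjusted p = 0.930), and reached 0.74 without KO452. No other member changed direction. Scaling to total reads moved the median of all genes to -0.17. The difference of the members from pan B cell genes lay between 0.89 and 1.80 with 1 library left out, and has no value under voom. Count tests and TMM factors from edgeR were not run. No paired analysis was possible because the groups share no library numbers. Between 12 and 310 reads stood behind each Rgs13 value, so counting error weighs most there.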
